A study of Mus musculus with 19 samples.

Results

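Pkm encodes the muscle-type pyruvate kinase, and the values below follow its M1 and M2 isoforms through every short-read library and long-read assembly of the series. GENCODE M21 gives the gene (ENSMUSG00000032294, GRCm38 chr9:59656368-59679375, plus strand) 11 transcripts, of 138789 annotated transcripts and 54749 genes measured in the ladder files. A transcript was classed by which of the 2 mutually exclusive exons it carries: 1 transcript, Pkm-201, holds the M2 exon, 2 transcripts, Pkm-202 and Pkm-203, hold the M1 exon, and 8 end before these exons and hold neither.

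The cells were mouse neural progenitors, the dividing precursors of cortical neurons and glia, taken from embryonic cortex and kept in medium with 20 ng/ml of each of FGF2 and EGF. Those labelled KO carried a conditional knockout of Mettl14, a subunit of the methyltransferase that places N6-methyladenosine on mRNA, and those labelled WT were wild type. The short-read groups were 4 KO ladder libraries, 4 WT ladder libraries and 3 WT standard libraries. In a ladder library, mRNA was parted by length into 7 bands that were barcoded and read as 75 bp pairs, while standard libraries were read as single 50 bp ends. Nanopore native RNA and direct cDNA reads of KO and WT cells, 2 replicates per genotype and chemistry, were deposited as 1 pooled assembly per genotype, chemistry and assembler. The Cre line, the age of the embryos and whether replicates were separate cultures are not given in the sources used here, so p-values measure the spread between libraries, which may be technical.

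Estimated counts totalled 104900000 to 118198000 in KO ladder, 103752000 to 126922000 in WT ladder and 12084500 to 13987900 in standard libraries. Mettl14 averaged 6.93 ± 0.82 counts scaled to 1000000 per library (CPM) in KO and 25.3 ± 3.69 CPM in WT ladder libraries (SD, n = 4 each), so its level went with the labels in all 8. The progenitor markers Sox2 (57.5 ± 36.0 CPM in KO and 56.1 ± 16.4 CPM in WT) and Pax6 (16.2 ± 1.34 CPM in KO and 16.0 ± 2.43 CPM in WT) were present in both genotypes. Summed over 8 progenitor markers, the level was 4336 to 5393 CPM in KO and 6625 to 6970 CPM in WT libraries, with Nes higher and Vim and Fabp7 lower in KO.

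Pyruvate kinase carries out the last step of glycolysis, in which phosphoenolpyruvate and ADP give pyruvate and ATP. The M1 form is constitutively active and is typical of adult muscle and brain, whereas the M2 form is switched by fructose bisphosphate and other ligands and prevails in embryonic and dividing cells. The choice rests on the splicing of a pair of neighbouring exons, of which a mature mRNA normally keeps 1: the proteins Ptbp1, Hnrnpa1 and Hnrnpa2b1 are known to repress the M1 exon and Srsf3 to favour the M2 exon.

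The paired exons are shown first because all isoform counts below depend on telling them apart. The M1 exon is exon 9 (chr9:59675029-59675195) and the M2 exon is exon 10 (chr9:59675568-59675734), and both sit in the coding sequence. Capitals mark the bases that differ when the exons are laid side by side without gaps (GENCODE M21 transcripts, GRCm38, plus strand, 5′ to 3′).
Pkm M1 exon: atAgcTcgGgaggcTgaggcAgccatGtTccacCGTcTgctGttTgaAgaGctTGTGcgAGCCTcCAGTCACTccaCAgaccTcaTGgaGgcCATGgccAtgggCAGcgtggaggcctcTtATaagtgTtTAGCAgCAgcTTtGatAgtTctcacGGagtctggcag
Pkm M2 exon: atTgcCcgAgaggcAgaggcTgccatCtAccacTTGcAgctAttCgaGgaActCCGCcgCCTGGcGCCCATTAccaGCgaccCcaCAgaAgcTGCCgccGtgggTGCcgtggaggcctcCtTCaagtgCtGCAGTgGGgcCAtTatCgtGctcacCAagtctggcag

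Each exon has 167 bases, and 103 of them (61.7%) are identical. Since the exons have the same length, either keeps the reading frame, and both isoforms code for 531 residues. The proteins differ at 22 residues, the first at position 389 and the last at position 433. Outside the exon, Pkm-201 (2432 bases) reaches further than Pkm-202 (2041 bases) at both ends.

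Only part of each mRNA can be assigned to an isoform by sequence. Of the 75-base windows of Pkm-202, 229 of 1967 (11.6%) were absent from Pkm-201, and all of them touched the M1 exon. Of those of Pkm-201, 620 of 2358 (26.3%) were absent from Pkm-202, 229 at the M2 exon and 391 at the longer ends. The downstream end sets them apart only if M1 mRNA stops at the annotated end of Pkm-202 (chr9:59679189), before that of Pkm-201 (chr9:59679375). Likewise, the upstream end does so only if M1 mRNA starts at the annotated start of Pkm-202 (chr9:59656573), after that of Pkm-201 (chr9:59656368). With 50-base windows the shares were 204 of 1992 (10.2%) for Pkm-202 and 595 of 2383 (25.0%) for Pkm-201. A read outside these stretches matches both isoforms, and its division between them comes from the quantifier's model.

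The letters GGACT, a frequent sequence context of N6-methyladenosine, were searched on both strands. Neither exon holds them on either strand, and each full transcript, Pkm-201 and Pkm-202 alike, holds 7 on its own strand. Of 716 internal coding exons of 167 bases in the annotation, 128 (17.9%) hold GGACT on the sense strand and 13.0% hold it on the reverse strand.

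**Figure D1:**
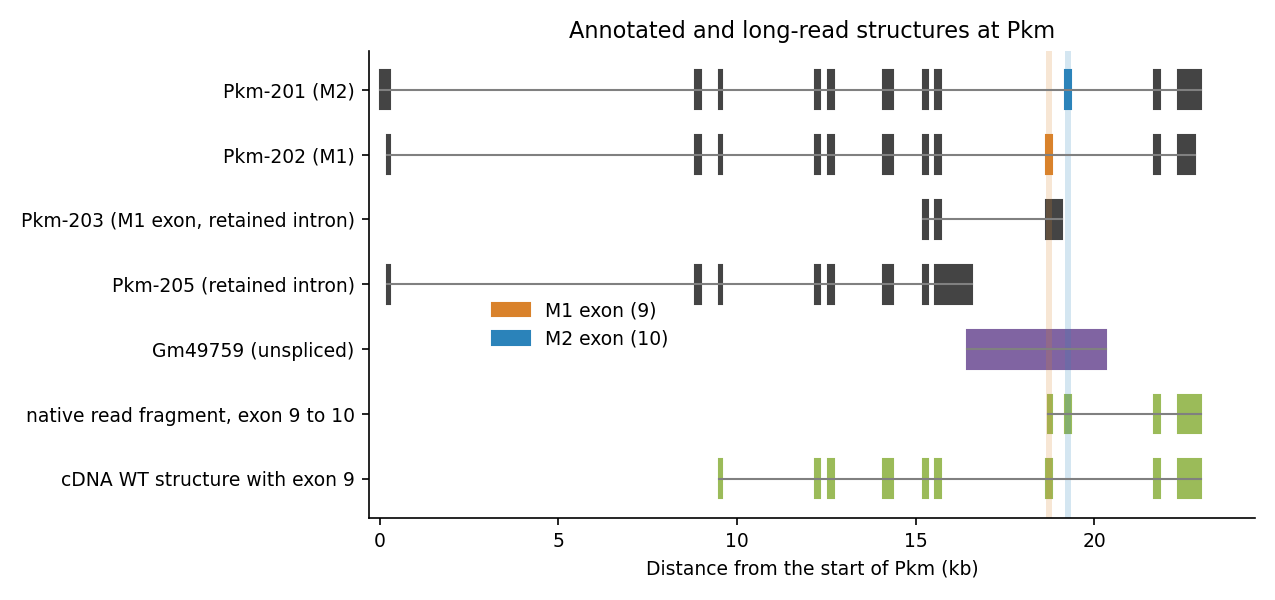
Exons (boxes) and introns (lines) of Pkm transcripts, of Gm49759 and of long-read structures (green) against distance from the start of Pkm in kb, with the M1 exon in orange and the M2 exon in blue. Pkm-201 and Pkm-202 share all internal exons except this pair, and Gm49759, an unspliced model on the same strand, spans both.

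Pkm as a whole was lower in KO than in WT, and of its isoforms M2 was called lower while M1 was not called. KO ladder libraries had 1141, 1223, 1317 and 1205 CPM of Pkm, and WT ladder libraries had 1535, 1309, 1706 and 1646 CPM. The lowest WT library, replicate 2, fell just below the highest KO library, replicate 3, so the groups overlapped. The log2 fold change was -0.34 (SE 0.12, adjusted p = 0.033 in edgeR, by its quasi-likelihood test and the adjustment of Benjamini and Hochberg), and 27.2% of 18687 tested genes were called lower. This call is weak: adjusted p ranged up to 0.25 over other settings, and it was lost without WT replicate 1, 3 or 4 or KO replicate 1 or 2 (adjusted p up to 0.10).

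The M2 class, which is Pkm-201 alone, had 516, 563, 713 and 578 CPM in KO libraries and 934, 772, 997 and 870 CPM in WT libraries. Every KO library lay below every WT library. The log2 fold change was -0.59 (SE 0.13, adjusted p = 0.0090 in edgeR), a fall of 33.7%, where 19.1% of 59136 tested transcripts were called lower. Over the fits that left out 1 of the 8 libraries it was -0.68 to -0.52, with adjusted p of at most 0.034. In bulk RNA, fewer cells with M2 mRNA and less M2 mRNA per cell cannot be told apart.

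The M1 class had 632, 692, 644 and 649 CPM in KO libraries and 534, 489, 751 and 729 CPM in WT libraries. The WT libraries spread on both sides of the KO libraries, with replicates 1 and 2 below and replicates 3 and 4 above all of them. The mean was 654 ± 26.2 CPM in KO and 626 ± 134 CPM in WT (SD, n = 4 each), and the log2 fold change was 0.06 (SE 0.15, approximate 95% interval -0.24 to 0.37, adjusted p = 0.77 in edgeR). Its sign turned when WT replicate 1 (-0.01) or WT replicate 2 (-0.02) was left out.

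**Figure D2:**
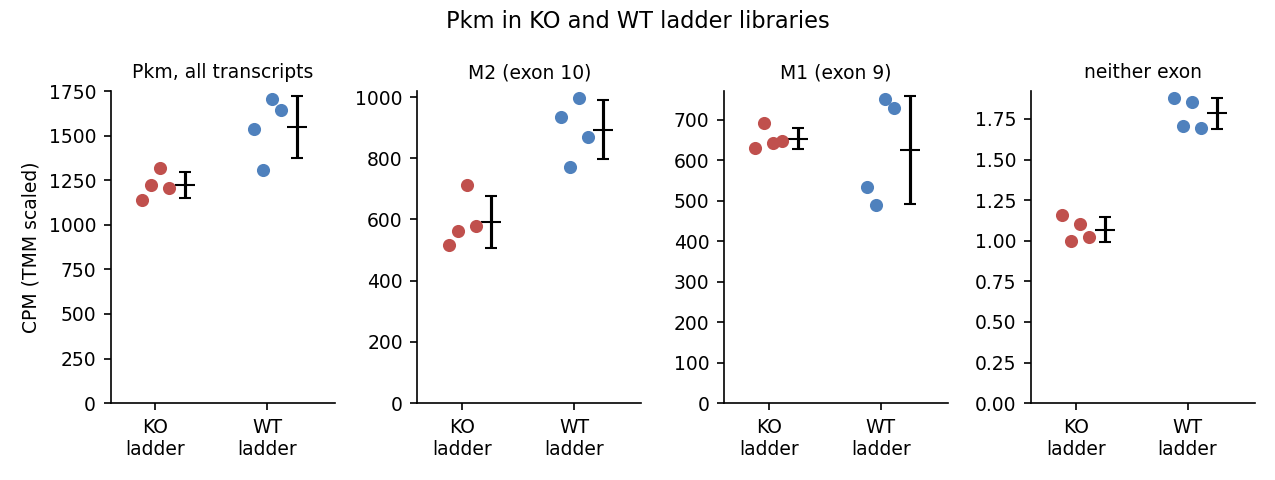
CPM of all Pkm transcripts, the M2 class, the M1 class and the transcripts with neither exon in 4 KO (red) and 4 WT (blue) ladder libraries. Points are libraries and bars are mean ± SD. M2 lies lower in KO without overlap (516 to 713 CPM in KO, 772 to 997 CPM in WT), while the M1 libraries of KO fall within the range of WT.

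The M1 share of M1 plus M2 estimated counts was therefore higher in KO. It was 55.1%, 55.2%, 47.4% and 52.9% in KO ladder libraries and 36.4%, 38.8%, 43.0% and 45.6% in WT ladder libraries. The groups did not overlap, and the nearest pair was KO replicate 3 and WT replicate 4. Exact binomial 95% intervals of single ladder libraries reached at most 0.28 points to either side. They treat every estimated count as an assigned read, so the uncertainty of dividing shared reads between the isoforms is not in them. Whether M1 reads past either annotated end of Pkm-202 were counted as Pkm-201 was not tested. Pkm-201 and Pkm-202 differ in length, and whether the merging of the length bands, which no source used here describes, bears on these shares was not tested. The means were 52.6% ± 3.61 in KO and 40.9% ± 4.13 in WT (SD, n = 4 each), a difference of 11.7 points with p = 0.0286 in an exact two-sided permutation test, the smallest that 4 against 4 libraries can give.

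A shift of this size was common in these libraries. Among 19026 transcripts that made up at least 5% of a gene with a mean of at least 100 counts and another such transcript, 29.2% had shares of their gene that did not overlap between the genotypes, and 14.8% did so with a difference of at least 10 points. For 19.6% of them the mean share differed by more than that of Pkm-202. In the test of transcript usage (edgeR's diffSpliceDGE), which sets each transcript against its gene as a whole, Pkm was not called (Simes adjusted p = 0.83), against 19.8% of 10532 tested genes that were. The coefficients of this test are natural logs of fold changes relative to the gene, not log2. They were 0.24 for Pkm-202 (adjusted p = 0.58) and -0.21 for Pkm-201 (adjusted p = 0.67).

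Per length, M1 stood above M2 in more libraries than by estimated counts, where it did so in 3 of 4 KO libraries. In TPM, counts per base of transcript scaled to 1000000 per library, M1 stood above M2 in all 4 KO libraries and in 1 of 4 WT libraries. M1 had 257, 317, 311 and 244 TPM and M2 had 174, 213, 286 and 180 TPM in KO replicates 1 to 4. In WT replicates 1 to 4, M1 had 214, 233, 271 and 335 TPM and M2 had 310, 305, 298 and 331 TPM. On this scale the M1 share averaged 57.3% in KO and 45.5% in WT, a difference of 11.8 points (exact permutation p = 0.0286). TPM rests on the annotated lengths of Pkm-202 (2041 bases) and Pkm-201 (2432 bases). Long-read structures, given below, had the same ends for both full chains wherever both were listed. TPM with equal ends was not computed.

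**Figure D3:**
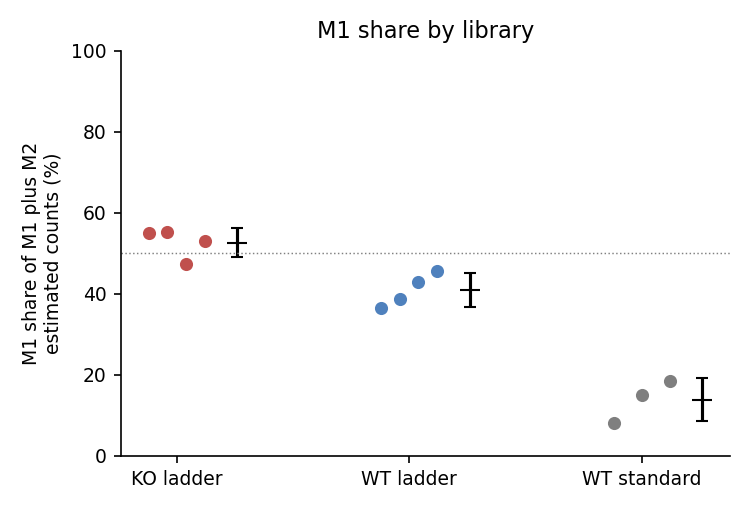
M1 share of M1 plus M2 estimated counts (%) in 4 KO ladder, 4 WT ladder and 3 WT standard libraries. Points are libraries, bars are mean ± SD and the dotted line marks equal counts. KO ladder libraries lie at 47.4% to 55.2%, WT ladder libraries at 36.4% to 45.6% and WT standard libraries at 8.01% to 18.5%.

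Of the 11 Pkm transcripts, 9 passed the filter on low counts in the ladder libraries, and 3 of these 9 were called lower in KO and 0 higher, beside 19.1% lower and 18.2% higher over all tested transcripts. Besides Pkm-201 these were Pkm-204 and Pkm-207, short models of the first part of the gene that end before the alternative exons. Pkm-204 had 0.299, 0.275, 0.255 and 0.273 CPM in KO and 0.569, 0.548, 0.511 and 0.601 CPM in WT libraries, a log2 fold change of -1.01 (SE 0.16, adjusted p = 0.0016 in edgeR). Pkm-207 had 0.168 to 0.228 CPM in KO and 0.251 to 0.379 CPM in WT libraries, a log2 fold change of -0.71 (SE 0.21, adjusted p = 0.031 in edgeR). The call of Pkm-207 was lost in 6 of the 8 fits that left out 1 library: those without WT replicate 1, 2 or 3 or KO replicate 1, 2 or 3 (adjusted p up to 0.080). It was also lost without a filter and in DESeq2 (adjusted p up to 0.096). The other 6 that passed the filter, Pkm-202 among them, had log2 fold changes between -0.86 and 0.06 and were not called.

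The transcripts with neither exon were a minor part of the gene. Together they held 0.079% to 0.10% of Pkm counts in KO and 0.11% to 0.14% in WT ladder libraries, or 1.07 ± 0.07 CPM in KO and 1.78 ± 0.10 CPM in WT (SD, n = 4 each). Their sum was lower in KO by a log2 fold change of -0.74 (SE 0.14, adjusted p = 0.0035 in edgeR). Pkm-203, a retained-intron model with a longer form of the M1 exon, had at most 2.14 estimated counts in a KO and 2.86 in a WT ladder library, so the M1 class of the ladder libraries was nearly all Pkm-202.

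Another gene model lies across the alternative exons. Gm49759 (ENSMUSG00000111394, chr9:59672814-59676700, plus strand) is an unspliced entry of the annotation that holds both exons and the intron between them. It was singled out after its values were seen. It had 72.4, 51.2, 64.1 and 35.5 estimated counts in KO ladder libraries and 297, 366, 300 and 455 in WT ladder libraries. The CPM of every KO library, at 0.668, 0.472, 0.565 and 0.322, lay below that of every WT library, at 2.99, 3.01, 2.41 and 4.2. The log2 fold change was -2.64 (SE 0.23, adjusted p = 2.7e-06 in edgeR). The target was listed in 8 ladder and 0 standard files, and reads inside these exons can be shared between it and Pkm. With 13 processed pseudogenes that resemble Pkm, it held counts equal to 0.064% to 0.089% of those of Pkm in KO and 0.18% to 0.30% in WT ladder libraries.

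Most other genes of glycolysis were lower in KO as well, many by larger estimates than Pkm. Of 21 genes of glycolysis and lactate handling, 20 passed the filter, and 15 were lower and 2 higher in KO, beside 27.2% lower and 26.4% higher over all tested genes, with a median log2 fold change of -1.25 against -0.03 over all genes tested. In 16 of the 20 the libraries of the genotypes did not overlap, as in 49.0% of all tested genes. The lactate exporter Slc16a3 averaged 2.69 ± 0.22 CPM in KO and 39.0 ± 8.46 CPM in WT (log2 fold change -3.85), the largest change in the list. The glucose transporter Slc2a3 followed with 9.55 ± 0.97 CPM in KO and 73.4 ± 9.57 CPM in WT (-2.94), and the phosphofructokinase subunit Pfkp with 20.3 ± 2.48 CPM in KO and 100.5 ± 16.4 CPM in WT (-2.31).

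Aldoa, Pgam1 and Eno1, which act upstream of Pkm, were also lower. Aldoa, which splits fructose bisphosphate, averaged 828 ± 86.9 CPM in KO and 2254 ± 265 CPM in WT (log2 fold change -1.44). Pgam1, a phosphoglycerate mutase, averaged 298 ± 17.9 CPM in KO and 838 ± 100.0 CPM in WT (-1.49). Eno1, the enolase that makes the substrate of pyruvate kinase, averaged 1275 ± 88.0 CPM in KO and 2466 ± 65.7 CPM in WT (-0.95). Each of these falls was larger than that of Pkm (-0.34) or of its M2 class (-0.59), a description of the estimates, since the differences between genes were not tested.

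At the branch after pyruvate, Ldha, the lactate dehydrogenase subunit that favours lactate, averaged 511 ± 15.2 CPM in KO and 1549 ± 86.2 CPM in WT (log2 fold change -1.60, adjusted p = 3.5e-07 in edgeR). Ldhb, the other common subunit, averaged 362 ± 46.1 CPM in KO and 332 ± 28.8 CPM in WT and was not called (adjusted p = 0.43 in edgeR). Slc2a1, another glucose transporter, averaged 39.8 ± 4.40 CPM in KO and 63.4 ± 13.2 CPM in WT (log2 fold change -0.67). The 2 genes that were higher were Pfkm, at 259 ± 27.7 CPM in KO and 183 ± 35.0 CPM in WT, and Aldoc, at 245 ± 7.73 CPM in KO and 192 ± 4.01 CPM in WT. Pklr, the gene of the liver and red cell pyruvate kinase, was at 0 to 0.009 CPM in KO and 0 to 0.032 CPM in WT and was not tested, so nearly all pyruvate kinase mRNA was Pkm.

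**Figure D4:**
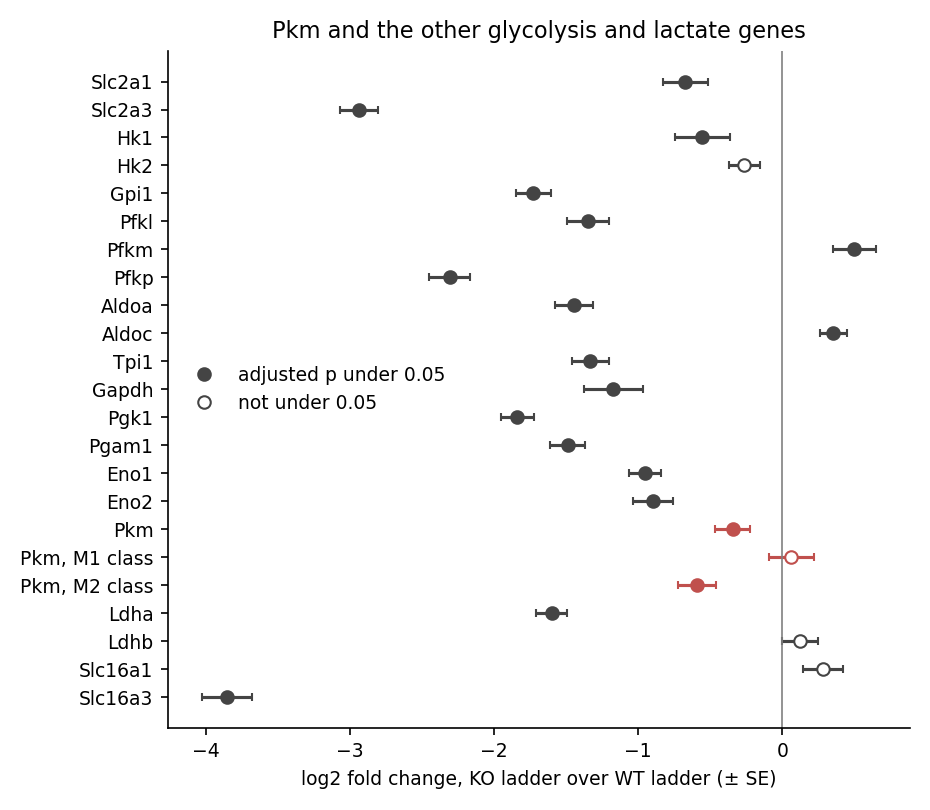
log2 fold change of KO over WT ladder libraries with its SE for 20 glycolysis and lactate genes in pathway order, with Pkm and its M1 and M2 classes in red. Filled points have an adjusted p under 0.05. Most genes lie between -0.55 and -3.85, while Pkm lies at -0.34, its M2 class at -0.59 and its M1 class at 0.06.

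Of 17 genes that set the fate of pyruvate, 6 were higher and 2 lower in KO, beside 26.4% higher and 27.2% lower over all tested genes. Pdk1, a kinase that switches off pyruvate dehydrogenase, averaged 32.9 ± 2.22 CPM in KO and 98.5 ± 12.8 CPM in WT (log2 fold change -1.58), and Pdha1, a subunit of that enzyme, 208 ± 22.2 CPM in KO and 264 ± 23.6 CPM in WT (-0.35). The call of Pdha1 was lost without WT replicate 1 or KO replicate 1, 2 or 4 (adjusted p up to 0.070 in edgeR). Across all 14 alternative fits in edgeR, DESeq2 and limma it was kept in 8, with adjusted p up to 0.20. The largest rises were those of Pdp2, a phosphatase that switches pyruvate dehydrogenase on (20.6 ± 2.58 CPM in KO and 12.8 ± 2.22 CPM in WT), Pcx, pyruvate carboxylase (134 ± 19.9 CPM in KO and 85.7 ± 17.5 CPM in WT), and Got2, a mitochondrial aspartate aminotransferase (217 ± 17.8 CPM in KO and 152 ± 10.5 CPM in WT).

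Among 15 factors tied to the exon choice, 7 were higher and 1 lower in KO, beside 26.4% of all tested genes higher and 27.2% lower. The 3 repressors of the M1 exon were all higher while the M1 share was higher too. Ptbp1 had 191, 259, 262 and 236 CPM in KO and 159, 102, 197 and 178 CPM in WT libraries, a log2 fold change of 0.57 (SE 0.19, adjusted p = 0.022 in edgeR). Hnrnpa1 averaged 694 ± 42.4 CPM in KO and 541 ± 42.7 CPM in WT (log2 fold change 0.36, adjusted p = 0.016 in edgeR). Hnrnpa2b1 averaged 592 ± 31.6 CPM in KO and 396 ± 67.4 CPM in WT (log2 fold change 0.58, adjusted p = 0.0039 in edgeR).

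The calls of Ptbp1 without KO replicate 2 or 3 (adjusted p of 0.056 at most) and of Hnrnpa1 without KO or WT replicate 1 (adjusted p of 0.052 at most) were lost. Myc, a transcription factor known to raise these repressors, averaged 75.2 ± 6.86 CPM in KO and 50.6 ± 6.48 CPM in WT (log2 fold change 0.57), and its partner Max 30.0 ± 1.22 CPM in KO and 15.8 ± 1.66 CPM in WT (0.93). The splicing factors Rbm4b (0.87) and Srsf2 (0.68) were also higher. Srsf1, the single one called lower, averaged 119 ± 13.3 CPM in KO and 152 ± 15.1 CPM in WT (-0.35). This call was lost without WT replicate 1 or KO replicate 2 or 4 (adjusted p up to 0.064). Across all 14 alternative fits in edgeR, DESeq2 and limma it was kept in 10, with adjusted p up to 0.11.

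Srsf3, which favours the M2 exon, averaged 194 ± 8.72 CPM in KO and 187 ± 10.4 CPM in WT (log2 fold change 0.05, adjusted p = 0.66 in edgeR). Ptbp2, the neuronal relative of Ptbp1, averaged 32.2 ± 3.53 CPM in KO and 38.5 ± 8.27 CPM in WT and was not called (adjusted p = 0.20, and 0.012 without WT replicate 3). Rbm4, known to favour the M1 exon during neuronal differentiation, averaged 13.5 ± 0.76 CPM in KO and 15.6 ± 0.80 CPM in WT. It was not called (adjusted p = 0.063 in edgeR), but was called lower without WT replicate 3 (adjusted p = 0.0498 in edgeR).

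Of 17 partners and regulators of pyruvate kinase, 1 was higher and 3 were lower in KO, beside 26.4% higher and 27.2% lower over all tested genes. Hif1a, the hypoxia factor that works with the M2 protein, averaged 61.3 ± 5.15 CPM in KO and 72.5 ± 13.8 CPM in WT and was not called (adjusted p = 0.17, and 0.026 without WT replicate 3). The oxygen sensors Egln3 (22.0 ± 2.37 CPM in KO and 88.1 ± 15.1 CPM in WT) and Egln1 (90.4 ± 7.05 CPM in KO and 172 ± 11.8 CPM in WT) were lower, as was Stat3 (170 ± 19.1 CPM in KO and 250 ± 36.3 CPM in WT). The growth factor receptor Fgfr1 was higher (157 ± 15.0 CPM in KO and 109 ± 10.8 CPM in WT).

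The genes with the most similar pattern over the 8 ladder libraries were taken by the root mean square difference of log2 CPM, each gene centred on its own mean. Among 5112 genes with an average log2 CPM of at least 5, the 5 nearest to Pkm were Golga7 (0.035), Tmed4 (0.039), Ptp4a3 (0.045), Ppme1 (0.045) and Prpf19 (0.046), against a median of 0.33. None of the 5 is on the chromosome of Pkm or in the lists above. Golga7 had 54.1, 59.9, 62.2 and 55.6 CPM in KO and 69.4, 62.8, 78.2 and 76.6 CPM in WT libraries. As for Pkm, KO replicate 3 was highest in KO and WT replicate 2 lowest in WT. Such likeness follows from choosing the genes by their distance from Pkm in these same libraries.

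Markers of cell types the cultures could hold differed between the genotypes beside the M1 share, and their part in it was not tested. Their calls stand beside 26.4% higher and 27.2% lower over all tested genes. Of 8 tested neuronal markers 7 were lower in KO, with sums over 9 markers of 224 to 310 CPM in KO and 246 to 354 CPM in WT libraries, mostly Map2. Of 6 astrocyte markers 5 were higher and 1, Aldh1l1, was lower (164 CPM in KO and 459 CPM in WT on average), with sums of 549 to 624 CPM in KO and 474 to 771 CPM in WT libraries. Of 8 markers of the oligodendrocyte lineage 4 were lower and 2 higher, with sums of 1693 to 2028 CPM in KO and 1145 to 1708 CPM in WT libraries. Among the neuronal markers, Stmn2 and Nefl stayed under 1 CPM in all 8 libraries.

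Muscle, the adult tissue richest in M1, was near absent: the 5 markers, of which 1 was tested and higher in KO, summed to 0.379 to 0.483 CPM in KO and 0.314 to 0.383 CPM in WT libraries. Sums were 5.52 to 6.56 CPM in KO and 0.418 to 0.673 CPM in WT libraries for 5 meningeal markers, of which 4 were tested and higher in KO. They were 5.01 to 5.44 CPM in KO and 3.63 to 4.66 CPM in WT for 5 endothelial and mural markers, of which 3 were higher and 1 lower. They were 1.38 to 1.95 CPM in KO and 0.815 to 1.13 CPM in WT for 5 microglial markers, of which 2 were tested and higher. Erythroid markers summed to 0.055 to 0.081 CPM in KO and 0.049 to 0.081 CPM in WT, with Hbb-bs and Hbb-bt at 0 throughout. Of 6 proliferation markers 1, Top2a, was lower in KO, and the sums were 767 to 847 CPM in KO and 801 to 956 CPM in WT libraries.

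The WT libraries allow the ladder protocol to be set against standard sequencing. This comparison used 105882 targets that all files share, with library totals over those targets, so its CPM are not on the scale of those above. Ladder libraries had 2165, 1881, 2520 and 2310 CPM of Pkm, and standard libraries had 1099, 1528 and 1666 CPM. The groups did not overlap, and the log2 fold change of ladder over standard was 0.63 (SE 0.18, adjusted p = 0.014 in edgeR), where 30.8% of 16131 tested genes were called higher. On the scale of log2(TPM + 1), where the median of all genes moved by -1.11, Pkm stood at -0.93 (adjusted p = 0.0020 in limma), which is 0.18 above that median.

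In CPM, the M1 class was higher in ladder than in standard libraries. The M1 class had 833, 796, 1199 and 1175 CPM in ladder libraries and 72.7, 206 and 278 CPM in standard libraries. The lowest ladder value was well above the highest standard value, and the log2 fold change was 2.43 (SE 0.45, adjusted p = 0.0039 in edgeR). On the log2(TPM + 1) scale it was 0.60 (adjusted p = 0.25 in limma), or 1.28 above the median of all transcripts. The M2 class had 1458, 1256, 1592 and 1403 CPM in ladder libraries and 834, 1173 and 1224 CPM in standard libraries. These did not overlap either, and the log2 fold change was 0.41 (SE 0.16, adjusted p = 0.075 in edgeR), while on the log2(TPM + 1) scale it turned to -1.50 and was called lower (adjusted p = 0.00013 in limma), or -0.83 relative to the median.

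The M1 share of M1 plus M2 counts was 36.4% to 45.6% in the WT ladder libraries and 8.01%, 14.9% and 18.5% in the standard libraries, without overlap. The difference of the means, 40.9% ± 4.13 in ladder (n = 4) and 13.8% ± 5.34 in standard libraries (n = 3), was 27.1 points (SD given; exact two-sided permutation p = 0.057, the smallest that 4 against 3 libraries can give). Between the genotypes in ladder libraries it was 11.7 points. The test of transcript usage called Pkm (Simes adjusted p = 4.0e-09 in edgeR), as it did 58.1% of 9998 tested genes. Read length, pairing, depth, the sorting by length and the target set all differ between the protocols and cannot be told apart.

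**Figure D5:**
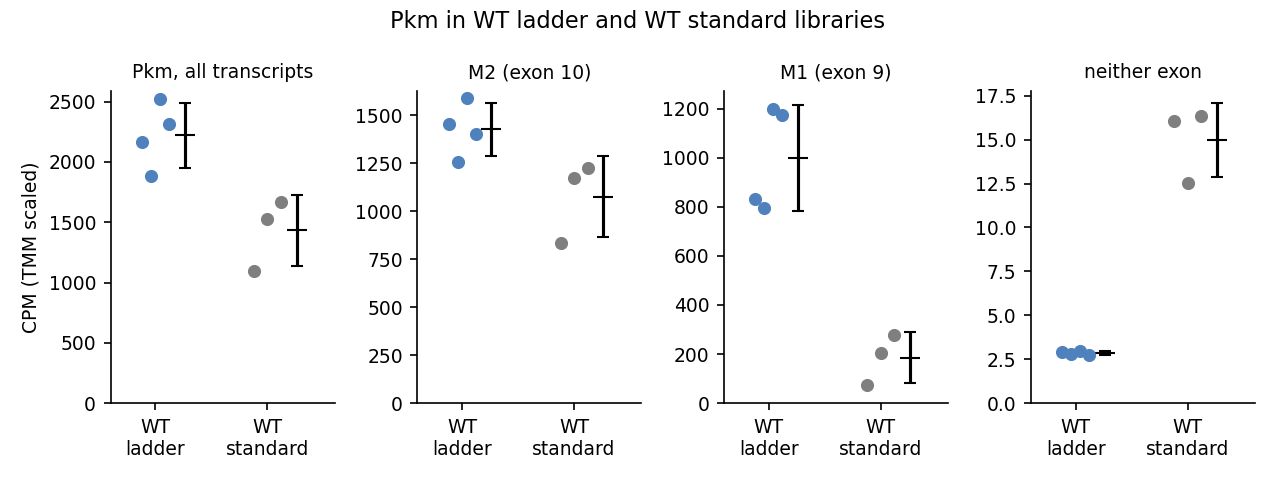
CPM over the targets shared by all files for all Pkm transcripts, the M2 class, the M1 class and the transcripts with neither exon in 4 WT ladder (blue) and 3 WT standard (grey) libraries. Points are libraries and bars are mean ± SD. M1 lies at 796 to 1199 CPM in ladder and 72.7 to 278 CPM in standard libraries, and transcripts with neither exon at 2.73 to 2.96 CPM in ladder and 12.6 to 16.3 CPM in standard libraries.

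Of the 11 transcripts, 10 passed the filter in this comparison, and 1 was higher and 2 were lower in ladder libraries, where 24.0% of 48881 tested transcripts were higher and 23.4% lower. The higher one was Pkm-202. The lower ones were the retained-intron models. Pkm-203 had 0.0151, 0, 0 and 0.0434 CPM in ladder and 2.45, 4.51 and 3.29 CPM in standard libraries (adjusted p = 0.00068 in edgeR). Pkm-205, which runs from exon 8 into the next intron, had 0, 0.246, 0.395 and 0.376 CPM in ladder and 10.5, 8.22 and 12.9 CPM in standard libraries (adjusted p = 0.0046 in edgeR). With neither exon, transcripts made up 0.11% to 0.14% of Pkm counts in WT ladder and 0.90% to 1.74% in standard libraries.

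A long read can cross the alternative exons and their neighbours in 1 molecule. FLAIR, which collapses reads to structures and was deposited without abundances, listed the full exon chain of Pkm-201 in all 4 assemblies. The full chain of Pkm-202 was listed in native RNA of KO and WT and in cDNA of KO. In cDNA of WT, M1 was present as a structure of 9 exons that starts near exon 3, keeps exon 9 and lacks exon 10. Every M1 structure of FLAIR ended at chr9:59679375, the annotated end of Pkm-201, and not at that of Pkm-202 (chr9:59679189). Where both full chains were listed, they also shared their start, chr9:59656576 in cDNA of KO and chr9:59656598 in native RNA. What this means for the short-read M1 share was not tested.

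The native RNA assemblies of both genotypes also listed the same fragment of 4 exons, which starts within the M1 exon and is joined to the whole M2 exon. FLAIR listed 2 spliced Pkm structures in cDNA of KO, 5 in cDNA of WT, 3 in native RNA of KO and 4 in native RNA of WT. Structures on the opposite strand, 3 in cDNA of KO and 1 in cDNA of WT, were in cDNA alone.

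StringTie, which assembles transcripts with an abundance, listed M2 transcripts only. In native RNA it gave 1 Pkm transcript per genotype, with the chain of Pkm-201, at 643 TPM in KO and 891 TPM in WT. In cDNA it gave 5 transcripts with 75.6 TPM in total in KO and 4 with 79.2 TPM in WT. The M1 share of StringTie TPM was 0% in all 4 assemblies, beside M1 structures from FLAIR in each of the same 4 pools, so 0% here is what this assembler kept and not a measured absence. Each value comes from 1 pool without replicates, so no test was made, and the chemistries are not on 1 scale.

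All StringTie Pkm transcripts in cDNA ended in a short exon 63.2 kb past the annotated end of Pkm, which carried 100% of their TPM in KO and WT and 0% in native RNA. Those exons were 30 to 55 bases long and lie within Senp8, a gene on the opposite strand, beyond Gramd2. No FLAIR structure had an exon past the gene.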

How the data were processed

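RNA of mouse neural progenitors was measured in 4 KO ladder, 4 WT ladder and 3 WT standard short-read libraries and in pooled long-read assemblies. Per the submitters' processing notes, kallisto (version not stated there) was used by the authors. The deposited values per transcript are estimated counts, which are not whole, and TPM, which sum to 1000000 in each file. No source used here says how the 7 bands were merged. The notes also list STAR 2.5.4b, StringTie and minimap2 2.17 with GRCm38. Long-read structures came from FLAIR without abundance and from StringTie 2.0 with deposited TPM and coverage per transcript, per the file headers. Assembled targets took 11.9% to 13.4% of ladder counts and stayed in library totals only.

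Estimated counts were rounded, summed per GENCODE M21 gene or Pkm class and filtered by filterByExpr. They were tested in edgeR 4.0.16 (R 4.3.3) by its quasi-likelihood method with robust dispersion after TMM scaling. P-values were adjusted by Benjamini and Hochberg over all features, with a threshold of 0.05. Transcript usage was tested with diffSpliceDGE. M1 shares were compared by exact permutation (SciPy 1.17.1). Alternatives used DESeq2 1.42.0 and limma 3.58.1 on log2(TPM + 1). Near copies of Pkm were found with blastn 2.17.0 (at least 80% identity over 100 bases). The model fits were run on simulated counts with a fixed dispersion. Their usage step was scored on larger changes than that of Pkm, so its power for a shift of that size was not tested.

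The members and gene lists were chosen with earlier results of these data known. Named are all Pkm transcripts, Mettl14, a set of 15 fixed genes, and up to 3 genes per list and direction with the largest change past the threshold. Depth was 103752000 to 126922000 estimated counts in ladder and 12084500 to 13987900 in standard libraries, and the intervals of Pkm shares leave out the uncertainty of dividing reads between isoforms. Same-numbered libraries did not deviate together (correlations of -0.02 to 0.06), so libraries were not paired by number in the main tests. Whether a number stands for a shared batch is not given in the labels, and weak correlations cannot settle it.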

Additional observations from a re-analysis of the deposited data

Results flagged for a closer look

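In groups of 4 ladder libraries, 104 sets of values were looked at for a library that stands far from the other 3, and 6 were flagged, near the 1 in 20 that chance gives. The ratio given is the gap to the nearest library over the range. Among Pkm transcripts they were Pkm-203 in KO, where replicate 2 holds its only counts (1.00), and Pkm-211 in KO, where replicate 3 was lowest (0.928). Among the genes of the lists they were Ptbp2, lowest in KO replicate 4 (0.904) and in WT replicate 3 (0.870), Pcx, lowest in WT replicate 2 (0.859), and Srsf2, lowest in KO replicate 1 (0.843). No M1 or M2 level or share was flagged. The check cannot flag libraries that split in pairs, as M1 did in WT (534 and 489 against 751 and 729 CPM). Over all genes, chi-square of the counts per degree of freedom was 104 between WT replicates 1 and 2. It was 101 between WT replicates 3 and 4, and 152 to 210 for the remaining WT pairs.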

How the results depend on the processing

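The fall of the M2 class in KO kept its call in every alternative tried, and the M1 class was not called in any. The Pkm gene level, KO against WT, lost its call with DESeq2 size factors in edgeR (-0.32), without a filter (-0.29), with a replicate block (-0.34, adjusted p = 0.056) and in limma on log2(TPM + 1) (-0.22), and ranged from -0.42 to -0.29 with 1 library left out. The M1 class ranged from -0.02 to 0.16 with 1 library left out, with the sign turned without WT replicate 1 (-0.00650) or 2 (-0.0222), and -0.00643 and -0.0222 for Pkm-202. The difference in M1 share ranged from 10.2 to 13.4 points with 1 library left out, where p cannot go below 0.057, and was 11.7 points over same-numbered pairs (replicate block, exact sign-flip p = 0.125, the smallest possible). Between ladder and standard, limma on log2(TPM + 1) turned Pkm to -0.93 and M2 and Pkm-201 to -1.50 and left M1 at 0.60 uncalled, and without a filter M2 was called (0.63). Genes lower in KO numbered 1 without a filter and in limma, and 1 to 4 with 1 library left out, for the fate of pyruvate (2 in the report), 0 without a filter, 3 with the replicate block and 0 to 4 with 1 library left out for exon choice (1 in the report), and 3 to 5 with 1 library left out for partners (3 in the report). Over all genes, limma on log2(TPM + 1) called 3321 lower in KO (5090 in edgeR), and 995 higher and 11565 lower in ladder (4967 and 4895 in edgeR). The cause of these changes was not tested. Pkm-207 lost its call without a filter (adjusted p = 0.096), in DESeq2 (adjusted p = 0.086) and with the replicate block (adjusted p = 0.085). Of 34 other named genes, 27 kept direction and call throughout. How the authors' quantifier divides reads between the isoforms could not be varied from the deposited values.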
